A study of Rattus norvegicus with 4 samples.

Results

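The genes described here are the enzymes Cyp7a1, Cyp8b1 and Cyp27a1, which make bile acids from cholesterol, and the nuclear receptors Nr1h4 (FXR) and Nr0b2 (SHP), which sense bile acids and restrain that synthesis. They were taken as every array feature whose symbol in the platform annotation was exactly one of these names. This gave 9 of 1936 features and 5 of the 958 genes that carried a symbol of their own on the array. Cyp7a1, Cyp8b1, Cyp27a1 and Nr0b2 each had 2 features and Nr1h4 had 1, and each feature was kept on its own. Features are named by their number in the annotation.

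Bile acid synthesis is the main route by which the liver disposes of cholesterol. Cyp7a1, a P450 enzyme of the endoplasmic reticulum, adds the 7α-hydroxyl group and sets the pace of the classic pathway, Cyp8b1 adds the 12α-hydroxyl group that makes cholic acid, and Cyp27a1, in mitochondria, oxidises the side chain and opens the alternative pathway. Nr1h4 is a nuclear receptor that binds bile acids. It induces Nr0b2, a nuclear receptor without a DNA-binding domain, which represses Cyp7a1 and Cyp8b1 by binding to activators such as Nr5a2 (LRH-1) and Hnf4a, and this loop is known to lower synthesis when bile acids build up in hepatocytes.

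The livers came from male Sprague-Dawley rats of 250 to 300 g. Each treated rat had 1 intraperitoneal injection of α-naphthylisothiocyanate (ANIT), a bile duct toxicant used to cause cholestasis, at 75 mg/kg in olive oil, and each control rat had olive oil alone, 24 h before the liver was taken. Total RNA of 3 rats was pooled per condition and poly(A) RNA purified from the pool, so that each condition was counted as 1 sample, differences between animals are unknown and no p-value for the treatment exists. Each of the 4 spotted cDNA arrays carried both pools. ANIT was in Cy5 for arrays 1 and 3, and the dyes were exchanged for arrays 2 and 4. The labels do not say whether any hybridisation used a pool of its own. The strain and sex were common to both groups, and neither carried any engineered allele.

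Values are ratios of the ANIT pool to the olive oil pool, read as log2, and each SD is over the 4 hybridisations (n = 4), counted here as technical repeats. The direction is likely and not stated: it follows the order in which the labels list the channels, and the opposite direction would turn every sign below. Arrays of the same orientation correlated closely over all features (Pearson r 0.949 and 0.940), and arrays of opposite orientation did not (r from -0.0095 to 0.051, Spearman rho from -0.35 to -0.29). The ratios were read as running from ANIT to olive oil on all 4 arrays because the 20 features of largest size in either orientation had the same sign in the other, 20 of 20 both ways. Had they run from Cy5 to Cy3 instead, the ANIT ratios would be -0.61 and -0.73 for Cyp7a1, -0.16 and -0.96 for Cyp8b1, 0.12 and 0.13 for Cyp27a1, -0.40 for Nr1h4 and 0.11 and 0.17 for Nr0b2. With natural logarithms the folds would be larger, for example 5.61-fold in place of 3.30-fold for Cyp7a1 feature 72. A ratio carries no level, so the place of a gene among liver transcripts, or the liver identity of the RNA, could not be read from these values. A feature was called lower or higher when its mean was at least 2-fold (1 on the log2 scale) and its sign was the same on all 4 arrays. By this rule 3.05% of the 1936 features were lower and 0.775% higher. After the median of each array was subtracted, a step that raised every mean by 0.17, 2.48% were lower and 1.14% higher, and the share of called features that were lower went from 79.7% to 68.6%.

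The sequence upstream of the start site is shown for the 3 genes that the RefSeq promoter table held, Nr0b2, Cyp8b1 and Cyp27a1, since the ratio of the repressor and those of the enzymes had opposite signs. Each line gives the 250 bases before the annotated start on build GRCr8, 5′ to 3′ on the gene's strand. The windows are chr5:151062910-151063159 on the plus strand for Nr0b2, chr8:130457593-130457842 on the minus strand for Cyp8b1 and chr9:83713282-83713531 on the plus strand for Cyp27a1, the last of which lies within the annotated span of the gene. Capitals mark exact matches, on either strand, of AGGTCA, the hexamer that many nuclear receptors bind, and of TCAAGG, a form of the core of the site of Nr5a2.
Nr0b2: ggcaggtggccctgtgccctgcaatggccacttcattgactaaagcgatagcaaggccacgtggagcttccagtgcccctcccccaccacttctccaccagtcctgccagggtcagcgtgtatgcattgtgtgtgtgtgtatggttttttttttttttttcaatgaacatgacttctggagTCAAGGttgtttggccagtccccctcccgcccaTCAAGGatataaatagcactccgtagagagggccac
Cyp8b1: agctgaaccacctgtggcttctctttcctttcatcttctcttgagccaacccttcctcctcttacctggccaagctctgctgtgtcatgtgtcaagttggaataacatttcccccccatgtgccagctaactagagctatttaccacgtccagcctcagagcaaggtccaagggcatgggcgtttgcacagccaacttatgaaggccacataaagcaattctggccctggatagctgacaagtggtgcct
Cyp27a1: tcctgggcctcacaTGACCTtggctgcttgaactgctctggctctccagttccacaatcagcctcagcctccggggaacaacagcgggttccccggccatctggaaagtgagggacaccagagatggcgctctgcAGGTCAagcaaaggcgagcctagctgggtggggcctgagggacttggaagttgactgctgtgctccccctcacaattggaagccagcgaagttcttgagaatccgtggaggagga

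The Nr0b2 window held 2 matches of TCAAGG, at -69 to -64 and -36 to -31 from the start site, and none of AGGTCA. The Cyp27a1 window held 2 matches of AGGTCA, at -236 to -231 on the minus strand and -115 to -110 on the plus strand. The Cyp8b1 window held neither hexamer in exact form. Forms that differ from TCAAGG by a single base, such as the ccaagg in the Cyp8b1 window, were not searched for. Of all 33469 promoter windows of this length, 14.1% held AGGTCA and 12.6% held TCAAGG. The inverted repeat AGGTCANTGACCT is a form bound by Nr1h4 with its partner Rxra, and the direct repeat AGGTCANAGGTCA a form bound by Hnf4a. Exact matches of these repeats were found in 0.0269% and 0.0508% of windows and in none of the 3 shown. With exact matches so rare, this search could not tell whether a gene has a site for these receptors. Imperfect forms of the repeats, and bases further upstream, were not searched. The 2 repeats contain the hexamer AGGTCA, so these searches overlap. A match describes letters only, and binding was not measured.

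Cyp7a1 (chromosome 5, 24174505 to 24184202 on GRCr8) was lower in the ANIT pool on both of its features, which carry the same clone accession in the annotation. Feature 72 had log2 ratios of -2.22 on array 1, -1.11 on array 2, -2.45 on array 3 and -1.12 on array 4. Every array was below 0, and the arrays with ANIT in Cy5 were lower than those with ANIT in Cy3, with no overlap. The mean was -1.72 ± 0.71, or 3.30-fold lower. By orientation, the ratio was 5.05-fold lower where ANIT carried Cy5 and 2.16-fold lower where it carried Cy3. Once the median of each array was subtracted, the orientations came closer, at -1.68 for ANIT in Cy5 and -1.44 for ANIT in Cy3.

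Feature 889, the other Cyp7a1 spot, read -2.21, -0.59, -2.22 and -0.93 on arrays 1 to 4, with a mean of -1.49 ± 0.85 or 2.80-fold lower. The same gap between the orientations was present, and with ANIT in Cy3 alone the mean of -0.76 (1.69-fold) did not reach 2-fold. On centred arrays the gap was smaller, with -1.55 for ANIT in Cy5 and -1.09 for ANIT in Cy3. The features differed by -0.24 ± 0.21 on average, with feature 72 the lower on all 4 arrays. Among the 21 pairs of features that share a gene and an accession on this array, the median difference between means was 0.19, and 66.7% of pairs differed by less than the Cyp7a1 pair. The SD of both Cyp7a1 features thus holds mostly the gap between dye orientations: the repeated arrays of one orientation differed by 0.23 and 0.012 for feature 72 and by 0.0055 and 0.34 for feature 889.

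Cyp8b1 (chromosome 8, 130455622 to 130457592) was lower by the rule on one feature and not on the other. Feature 1391 read -1.99 on array 1, -1.74 on array 2, -2.11 on array 3 and -1.72 on array 4. All 4 arrays lay close together. The arrays with ANIT in Cy5 were lower, with no overlap, at orientation means of -2.05 for ANIT in Cy5 and -1.73 for ANIT in Cy3. The mean over all 4 arrays, -1.89 ± 0.19 or 3.71-fold lower, was the lowest of the 9 features and the 14th lowest of all 1936. On centred arrays the order turned, with -1.39 for ANIT in Cy5 and -2.06 for ANIT in Cy3.

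Feature 422, the other Cyp8b1 spot, read -1.61 on array 1, 0.58 on array 2, -1.30 on array 3 and 0.34 on array 4. Its sign followed the dye, and the mean of -0.50 ± 1.12 did not pass the rule. The 2 Cyp8b1 features differed by -0.60 where ANIT carried Cy5, by -2.19 where it carried Cy3, and by -1.39 ± 0.94 overall. Of the 678 pairs of features on the array that share a gene but not an accession, 99.1% differed by less. Where on the transcript each spot lies, for this gene or the others, is not stated in the sources at hand.

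Cyp27a1 (chromosome 9, 83712402 to 83743222) was lower by the rule on both features. Feature 1608 read -1.07, -1.56, -1.32 and -1.32 on arrays 1 to 4, with a mean of -1.32 ± 0.20 or 2.49-fold lower. Feature 1840, from another clone, read -1.09, -1.47, -1.25 and -1.40, with a mean of -1.30 ± 0.17 or 2.47-fold lower. All 8 values were below -1, and the ratio was 2.29-fold lower for ANIT in Cy5 and 2.71-fold lower for ANIT in Cy3 on feature 1608, and 2.25-fold and 2.70-fold lower on feature 1840. The features differed by -0.016 ± 0.086, and only 7.23% of the 678 pairs from different accessions differed by less.

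Nr1h4 (chromosome 7, 25733471 to 25829440), the bile acid receptor, was below 0 on all 4 arrays but did not reach 2-fold. Its single feature, 1358, read -1.27 on array 1, -0.53 on array 2, -1.23 on array 3 and -0.38 on array 4. The arrays with ANIT in Cy5 were lower, with no overlap between the orientations. The mean was -0.85 ± 0.46, or 1.81-fold lower, made of 2.38-fold for ANIT in Cy5 and 1.37-fold for ANIT in Cy3. Once the median of each array was subtracted, this order turned, with -0.59 for ANIT in Cy5 and -0.78 for ANIT in Cy3.

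Nr0b2 (chromosome 5, 151063160 to 151066475), the repressor induced by Nr1h4, was the only one of the 5 genes whose mean ratio was above 0, and it did not reach 2-fold on either feature. Feature 1544 read 0.93, 0.42, 0.70 and 0.53 on arrays 1 to 4, with a mean of 0.64 ± 0.22 or 1.56-fold. Feature 1795, from another clone, read 0.67, 0.57, 0.73 and 0.40, with a mean of 0.59 ± 0.14, or 1.62-fold for ANIT in Cy5 and 1.40-fold for ANIT in Cy3. All 8 values were above 0, which held on all 4 arrays for 11.9% of the array's features. The features differed by -0.055 ± 0.18, less than their spread between arrays.

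**Figure D1:**
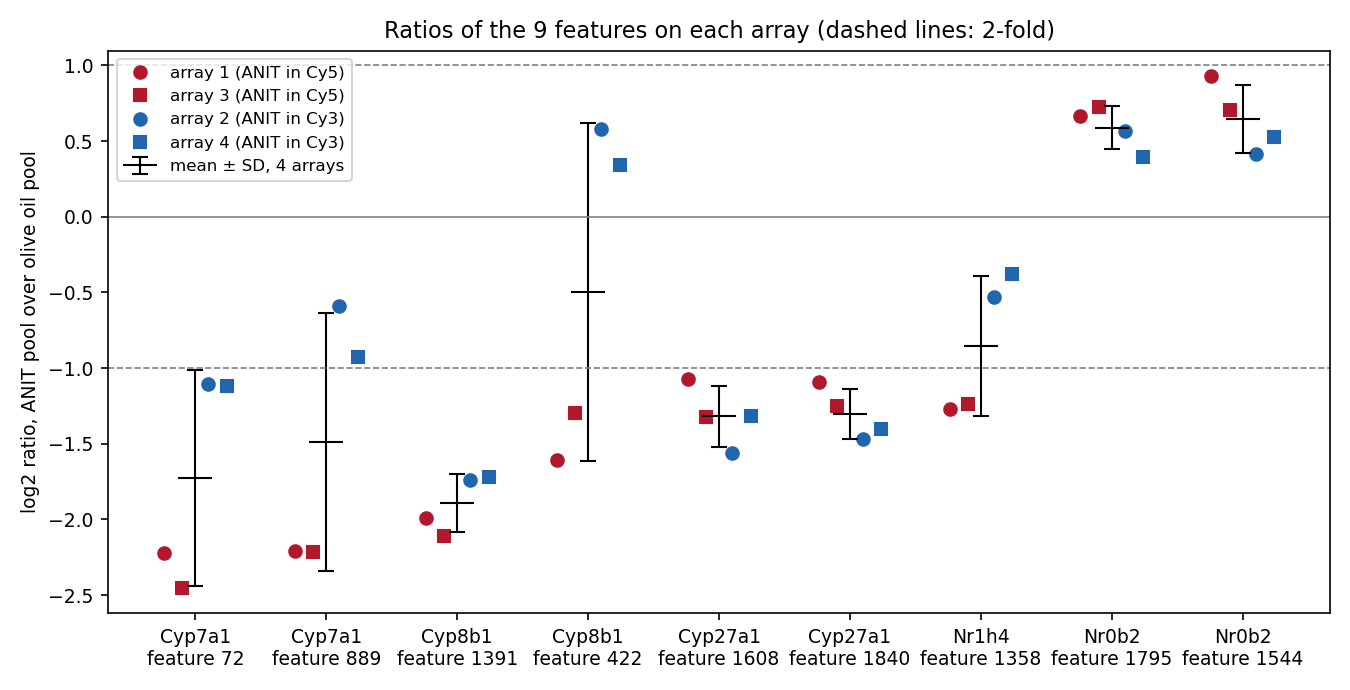
Log2 ratio of the ANIT pool to the olive oil pool (vertical axis) for each of the 9 features, with 1 point per array (red, ANIT in Cy5; blue, ANIT in Cy3) and black bars for the mean ± SD of the 4 arrays; dashed lines mark 2-fold. The Cyp8b1 feature 1391, both Cyp27a1 features and both Cyp7a1 features lie below -1 in the mean, Nr0b2 lies above 0 on every array, and the Cyp8b1 feature 422 changes sign with the dye.

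In all, 5 of the 9 features were lower by the rule and 0 higher, against 3.05% and 0.775% of all features. Of the 9 features, 6 were below 0 on all 4 arrays, against 17.6% of the array, and 2 were above 0 on all 4. With centred arrays 5 were lower and 0 higher, against 2.48% and 1.14%. At 1.5-fold, Nr1h4 and the same 5 features were lower and both Nr0b2 features were higher, against 6.92% and 2.48% of all features. No test across animals stands behind these counts, and the SD describes the arrays alone. A limma fit with dye as a covariate, which compares the pooled RNA and not the treatment across animals, put 7 of the 9 features lower and 2 higher at an adjusted p below 0.05. The same fit called 61% of all features lower and 14.2% higher.

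By gene, with the features of a gene averaged, the order from the lowest was Cyp7a1 (-1.60 ± 0.78), Cyp27a1 (-1.31 ± 0.18), Cyp8b1 (-1.19 ± 0.65), Nr1h4 (-0.85 ± 0.46) and Nr0b2 (0.62 ± 0.17). Cyp27a1 did not separate from the other enzymes beyond the spread. It was above Cyp7a1 on arrays 1 and 3 and below it on arrays 2 and 4, with a mean difference of 0.29 ± 0.93. Cyp8b1 and Cyp27a1 likewise changed order with the dye (0.12 ± 0.81). Cyp8b1 lay above Cyp7a1 on all 4 arrays, by 0.41 ± 0.16. Feature 1391 alone had a lower mean than either Cyp7a1 feature, so this order holds for the average with feature 422.

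The difference between Nr0b2 and the enzymes does not depend on any offset that all features of an array share. Nr0b2 exceeded Cyp27a1 by between 1.82 and 2.01 on the 4 arrays, a mean of 1.93 ± 0.091 or a 3.80-fold difference between their ratios. This gap was nearly the same on every array. Nr0b2 exceeded Cyp7a1 by 3.01 and 3.05 on arrays 1 and 3 and by 1.34 and 1.48 on arrays 2 and 4, and exceeded Nr1h4 by 2.07, 1.02, 1.95 and 0.84 on arrays 1 to 4. The sign was the same on all 4 arrays for Nr0b2 against each of the other 4 genes.

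The dye orientation moved the array as a whole as well as single features. The medians of arrays 1 to 4 were -0.68, 0.31, -0.64 and 0.35, and 58.4% of the features were below 0 where ANIT carried Cy5 and above 0 where it carried Cy3. Among the 9 features, Cyp8b1 feature 422 alone did so. It also had the most close neighbours of the 9, with features with and without a symbol counted. In number, 340 features, or 17.6% of the array, lay within a root mean square difference of 0.3 of it over the 4 arrays. This compares with 1 and 2 features for the Cyp7a1 spots, 8 for Cyp8b1 feature 1391 and 16 and 18 for the Cyp27a1 spots. For Nr1h4 the number was 35, and for the Nr0b2 spots 92 and 110. The limit of 0.3 was chosen after the values were seen.

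**Figure D2:**
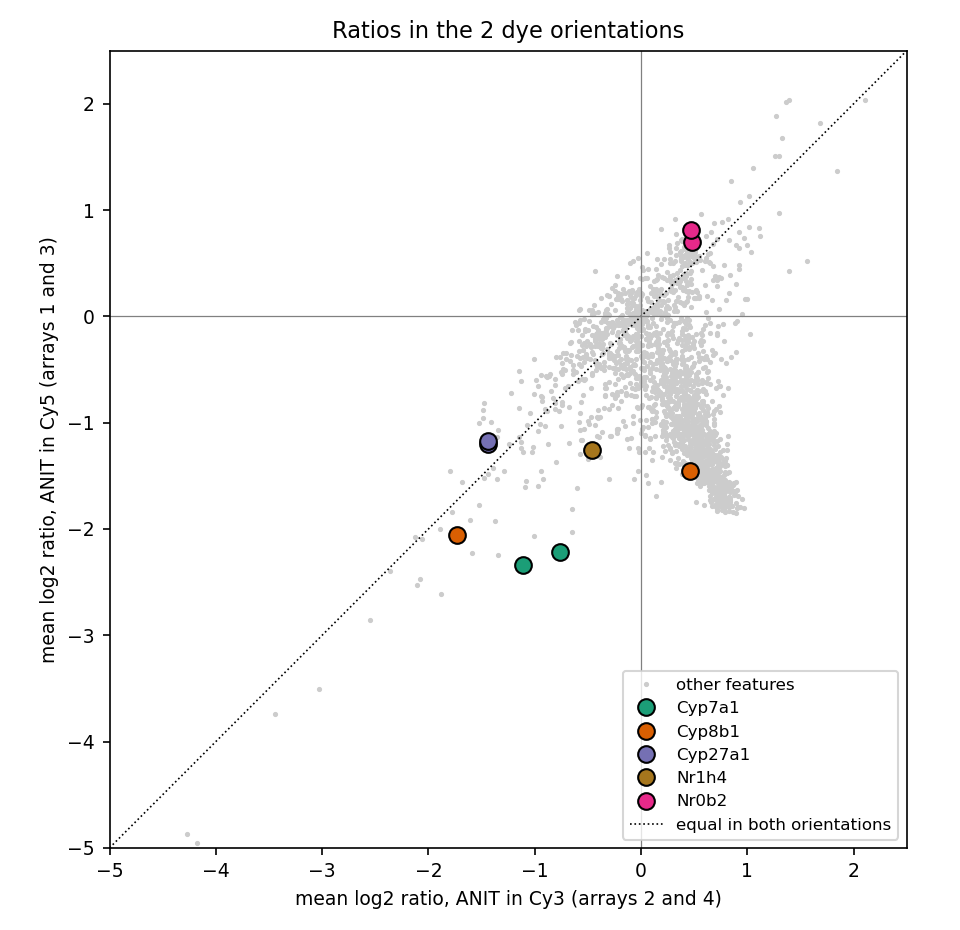
Mean log2 ratio with ANIT in Cy3 (horizontal axis, arrays 2 and 4) against ANIT in Cy5 (vertical axis, arrays 1 and 3) for all 1936 features (grey) and the 9 features of the 5 genes (coloured); the dotted line marks equal ratios. In these uncentred ratios, Cyp27a1, Cyp8b1 feature 1391 and Nr0b2 lie near the line, and Cyp7a1 and Nr1h4 below it. Cyp8b1 feature 422 lies in the dense arm of features whose sign follows the dye.

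Placed among all features of the same array, Cyp8b1 feature 1391 was in the lowest 1% on every array, between percentile 0.671 and 0.981. The Cyp7a1 features lay at percentiles 0.465 to 0.620 with ANIT in Cy5 and 2.22 to 7.49 with ANIT in Cy3. Both thus stayed in the low end of every array.

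Cyp27a1 and Nr0b2 changed place more than their raw ratios did. The Cyp27a1 features were at percentiles 1.09 to 1.71 with ANIT in Cy3 but at 17.4 to 31.7 with ANIT in Cy5, where most of the array was also below 0. The Nr0b2 features were at percentiles 95.7 to 98.8 with ANIT in Cy5 but at 55.3 to 77.0 with ANIT in Cy3, where most features were above 0. With arrays centred on their medians, the Nr0b2 means were 1.36 and 1.47 for arrays 1 and 3 against 0.15 and 0.14 for arrays 2 and 4, and the Cyp27a1 means -0.54 and -0.51 against -1.77 and -1.76. The signs did not change between the orientations, but the size relative to the rest of the array did.

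**Figure D3:**
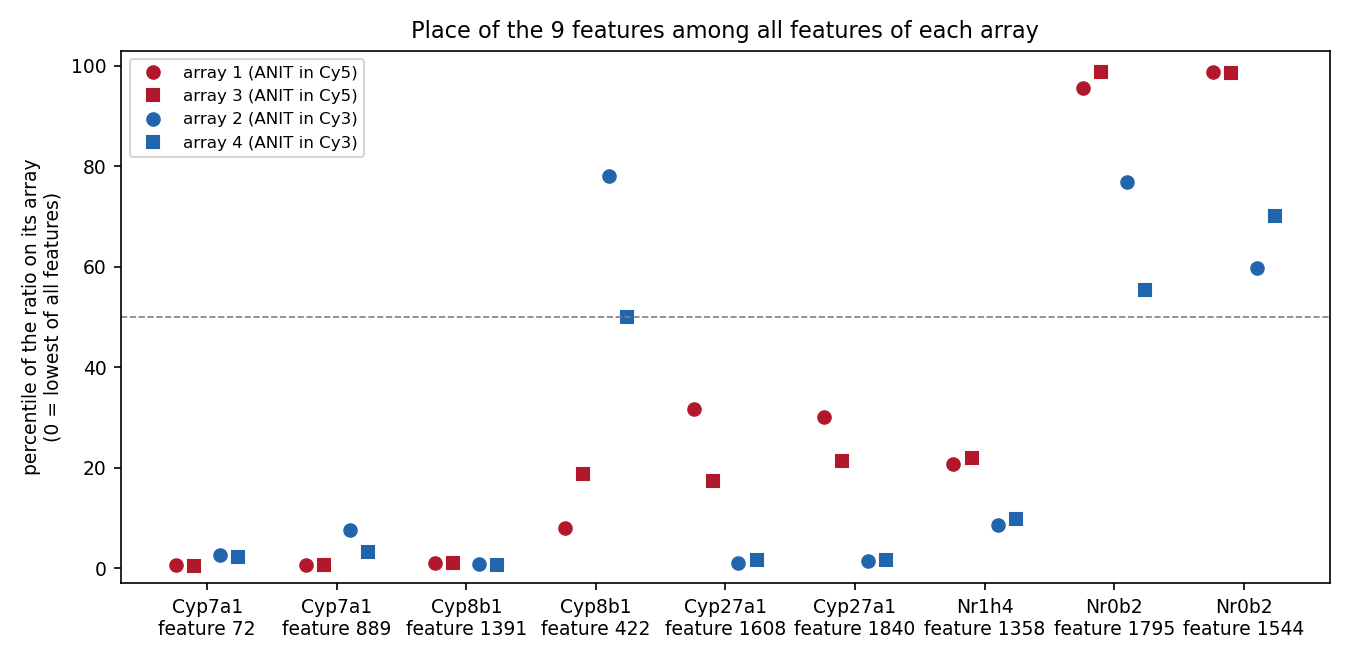
Percentile of each feature's ratio among the 1936 features of the same array (vertical axis, 0 lowest) for the 9 features, with 1 point per array (red, ANIT in Cy5; blue, ANIT in Cy3). Cyp7a1 and Cyp8b1 feature 1391 stay at or below percentile 7.49 on all arrays, whereas Cyp27a1 reaches 31.7 with ANIT in Cy5 and Nr0b2 falls to 55.3 with ANIT in Cy3.

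Among the array's 61 features of 29 genes with a Cyp symbol, the 5 lowest means were those of Cyp8b1 feature 1391, both Cyp7a1 features and both Cyp27a1 features, in that order. The next was a feature of Cyp2e1, which metabolises ethanol and other small molecules, at -1.24 ± 0.14. The step from Cyp27a1 to Cyp2e1 was smaller than the SD of either. By the rule 11 Cyp features were lower and 2 higher, against 3.05% and 0.775% of all features. The Cyp median was -0.35, against -0.25 over all features. Among the 13 features of 8 genes with an Nr symbol, Nr1h4 was the lowest and the Nr0b2 features were the 2 highest. Nr3c1, the glucocorticoid receptor, was next to Nr1h4 at -0.82 ± 0.35 on one of its features, and Nr1h2, the oxysterol receptor LXRβ, next to Nr0b2 at 0.55 ± 0.12. Neither neighbour differed beyond the spread, and no Nr feature passed the rule. These symbol families were chosen after the values were seen.

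**Figure D4:**
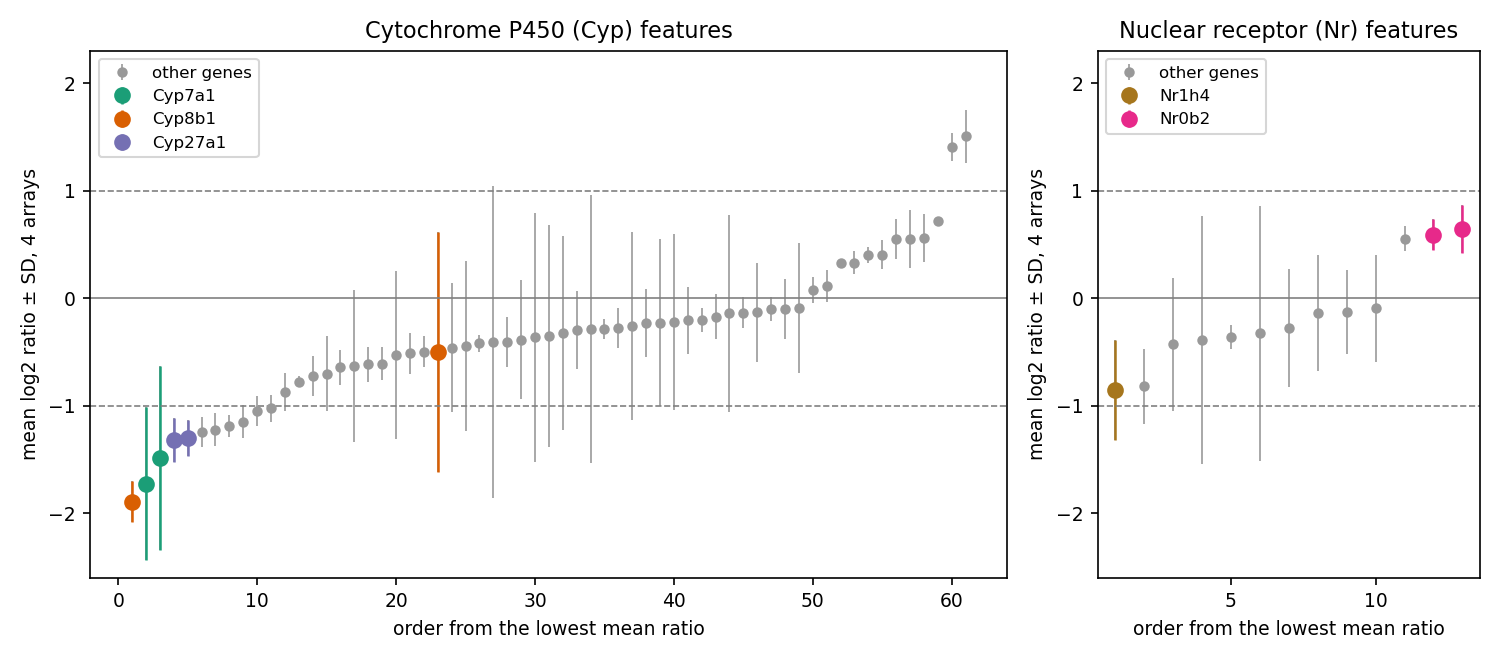
Mean log2 ratio ± SD over the 4 arrays (vertical axis) of all features with a Cyp symbol (left) and an Nr symbol (right), ordered from the lowest mean (horizontal axis); dashed lines mark 2-fold. The bile acid enzymes hold the 5 lowest places among 61 Cyp features, with Cyp8b1 feature 422 further right at -0.50, and Nr1h4 and Nr0b2 hold the ends of the 13 Nr features.

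Features of other genes with the most similar readings were found by the root mean square difference over the 4 arrays. Nearest to Cyp7a1 feature 72 were Car1 (0.22), Fads2 (0.24) and Slco1a4 (0.36), which encode a carbonic anhydrase, a fatty acid desaturase and an organic anion carrier. Nearest to Cyp8b1 feature 1391 were Wt1 (0.074), Casp4 (0.17) and again Slco1a4 feature 397 (0.17). Nearest to Cyp27a1 feature 1608 were Cyp2e1 (0.13), Dck (0.16) and Ang (0.19). Nearest to Nr1h4 were Rasa3 (0.091), Sgk1 (0.097) and Me1 (0.13). Nearest to Nr0b2 feature 1544 were Cyp2c22 (0.11), Itih3 (0.11) and Rpl3 (0.14).

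The wider pathway was read from lists of 7 kinds. For each count below, the shares over all features were 3.05% lower and 0.775% higher. Of 20 listed enzymes of bile acid synthesis, the 3 described above were matched to features. The electron partners of P450 enzymes had 13 features of 3 genes, of which 1 was lower and 0 higher, with a median of -0.32 against -0.25 over all features. That feature was one of Cyb5r3, the cytochrome b5 reductase, at -1.62 ± 0.13, while its other feature stood at -0.33 ± 1.19. Por, the reductase that feeds electrons to microsomal P450 enzymes such as Cyp7a1 and Cyp8b1, had 5 features from -0.35 to 0.93. Cyb5a, cytochrome b5, had 6 features from -0.41 to 0.59. The features of one gene thus pointed both ways for Por and Cyb5a.

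Of 38 listed genes of bile acid sensing and control, 10 were matched, with 14 features, 0 lower and 0 higher by the rule and a median of -0.10. Beside Nr1h4 and Nr0b2, Rxra, the partner with which Nr1h4 binds DNA, had the largest size at -0.69 ± 0.16, and its other feature stood at -0.34 ± 0.25. Nr1h2 followed at 0.55 ± 0.12, and Mapk8 (JNK1), a kinase through which bile acids and cytokines can lower Cyp7a1, at -0.39 ± 0.57.

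Of 13 transport genes listed as under Nr1h4 or Nr0b2 control, 4 were matched, with 6 features. Of these features 3 were lower and 0 higher, against 3.05% and 0.775% of all features. Their median was -0.76, against -0.25 over all features. Control of the matched genes by either receptor was not tested. Slc10a1, the sodium-dependent bile acid uptake carrier that Nr0b2 is known to repress, was lower on both features (-1.46 ± 0.025 and -1.41 ± 0.085), with orientation means between -1.48 and -1.40. Slco1a4 was lower on feature 397 (-1.91 ± 0.37) and not on feature 1152 (-0.10 ± 0.10). Abcc2, the canalicular pump for conjugates, stood at 0.40 ± 0.042. Cyp27a1 and Slc10a1 were thus alike in showing 2 features each past the rule with little difference between the orientations in uncentred ratios. This was not particular to the pair, since both Cyp2j3 features also passed the rule with a small SD (-1.19 ± 0.10 and -1.15 ± 0.15). With arrays centred on their medians, the Cyp27a1 means were -0.54 and -0.51 for ANIT in Cy5 and -1.77 and -1.76 for ANIT in Cy3. Centring shifts all features of an array by the same amount, so Slc10a1 moves in the same way.

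Other known targets of Nr1h4 had 8 features of 6 genes, 0 lower and 0 higher, and a median of 0.046. Fgg, the fibrinogen gamma chain, stood at 0.79 ± 0.17 and 0.34 ± 0.23, Pck1, which controls gluconeogenesis, at -0.58 ± 0.51 and Icam1, a leukocyte adhesion receptor, at 0.23 ± 0.26. Cholesterol supply and disposal had 9 features of 5 genes, 0 lower and 0 higher, and a median of 0.067. Its genes of cholesterol synthesis were split, with Dhcr7 at -0.60 ± 0.066 and -0.57 ± 0.10 and the 4 features of Cyp51 between 0.33 and 0.41, while Acat2, a thiolase, stood at -0.33 ± 1.14.

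Signals known to lower Cyp7a1 in inflammation had 12 features of 9 genes, 0 lower and 1 higher, with a median of -0.26. Stat3, which carries interleukin 6 signals, was higher on feature 723 at the limit of the rule (1.00 ± 0.11) and stood at 0.86 ± 0.23 on its other feature. Without array 1, or without array 2, 0 features of the list were higher, and with centred arrays 2 were. Il1r1, the interleukin 1 receptor, stood at 0.52 ± 0.069 and Egfr at -0.68 ± 0.33. The cytokines themselves were Tnf at -0.50 ± 0.29, Il1a at -0.26 ± 0.80 and Il1b at -0.40 ± 1.12 and -0.33 ± 1.00, of which Il1a and both Il1b features changed sign with the dye.

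**Figure D5:**
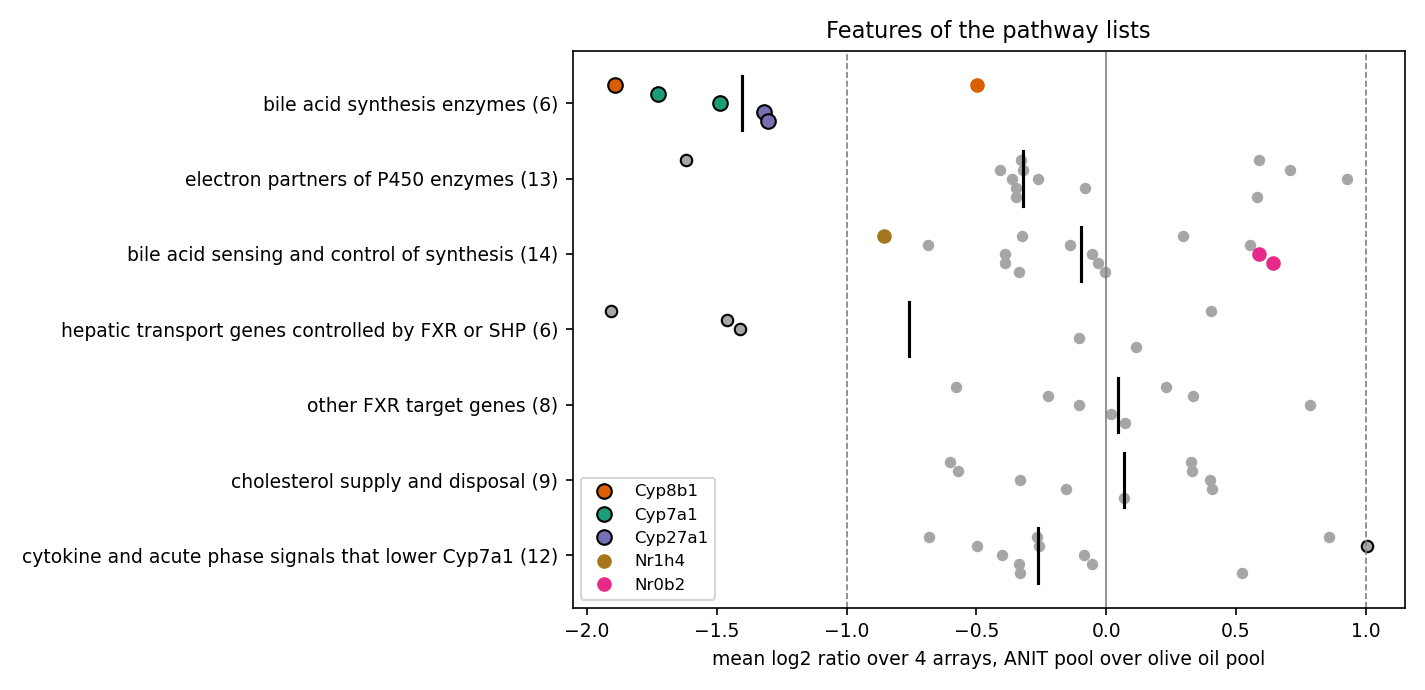
Mean log2 ratio over the 4 arrays (horizontal axis) of each feature in the pathway lists (rows, number of features in brackets); coloured points are the 5 genes, black outlines mark features called by the rule of 2-fold size, and thick bars mark list medians. Synthesis enzymes (median -1.40) and transport genes (-0.76) lie furthest left, and no other list has more than 1 called feature.

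In pooled liver RNA, fewer hepatocytes and less of a transcript per hepatocyte cannot be told apart. Hepatocyte markers matched 5 features of 4 of 13 listed genes (Serpina1, Ttr, Tf and Apoa1), with means from -0.49 to 0.074 and 0 past the rule. Serpina1, an abundant secreted protease inhibitor, read -0.49 ± 1.49 on one feature and -0.071 ± 0.44 on the other, and Ttr, the thyroxine carrier, -0.13 ± 0.27. Markers of cholangiocytes, the cells of the bile ducts, matched 5 features of 4 of 14 genes (-0.55 to 0.0093). Those of endothelium matched 5 features of 4 of 10 genes (-0.44 to -0.080). Those of stellate cells and fibroblasts matched 4 features of 3 of 10 genes (-0.45 to 0.13). Neutrophil markers matched 2 features of S100a9 (-0.37 and 0.11), lymphocyte markers 1 feature of Il2rb (-0.84), and 0 of 10 macrophage markers were matched. None of these features passed the rule. When ANIT was moved from Cy5 to Cy3, 4 of 5 hepatocyte, 4 of 5 cholangiocyte and 4 of 5 endothelial features went from below 0 to above 0. So did 2 of 4 stellate cell and fibroblast features and 2 of 2 neutrophil features, but not the lymphocyte feature. Over all features the share was 58.4%, so these counts do not set the markers apart from the array. The part of a change in cell makeup in the enzyme ratios was not tested.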

How the data were processed

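Per the labels, RNA pools of ANIT and olive oil rats were labelled with Cy3 and Cy5 and hybridised to 4 spotted cDNA arrays in a dye swap. The authors deposited 1 log ratio per feature and array, read as log2 here. The scanning, any normalization, the log base and the direction were not given in the sources used here. Base 10 was set aside because the largest size, 4.96, exceeds the range of a 16-bit scanner, 4.82. Values were used uncentred, with no array's sign turned. The mean over the 4 arrays balances the dyes. Symbols came from the platform annotation, and all 9 features matched the RefSeq gene table (GRCr8), which also gave the gene coordinates; 3 of the 5 genes were in its promoter table. limma 3.58.1 (R 4.3.3) fitted all features with a dye term. Other steps used Python 3.11.15, numpy 2.4.6, pandas 2.3.3 and matplotlib 3.10.9. The size rule and the limma fit were tested on simulated data, and the other steps were not. Genes and lists were chosen with earlier results of these data known; named list genes are those called and up to 3 others of largest size, plus the 3 nearest features to 1 feature of each gene. Tnf, Il1a, Il1b, Nr3c1 and marker genes were added after their values were seen. Alternatives were 1.5-fold, centred arrays, single orientations, gene means, limma, natural logarithms, the opposite direction, each array left out and settings added after seeing the data. The number of arrays limits the precision.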

Additional observations from a re-analysis of the deposited data

How the results depend on the processing

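The sign of a called feature turned under 2 alternatives, the opposite direction and, chosen after seeing the data, ratios taken as Cy5 over Cy3 on every array. The latter gave 0.12 and 0.13 for Cyp27a1, -0.61 for Cyp7a1 feature 72, -0.16 for Cyp8b1 feature 1391 and 0.11 and 0.17 for Nr0b2, with 0 of the 9 features called and, over all features, 238 lower and 0 higher. Over all features 59 were lower and 15 higher; these numbers were 134 and 48 at 1.5-fold, 34 and 6 with gene means, 1181 and 275 by limma, 113 and 33 with natural logarithms and 15 and 59 as olive oil over ANIT, and 667 were lower with ANIT in Cy5 alone. Of the 9 features, 5 were lower and 0 higher. With gene means 3 of the 5 genes were lower, Cyp8b1 at -1.19. That value averages feature 1391 (-1.89) with feature 422 (-0.50), whose sign followed the dye and which did not pass the rule. Over the array, where 958 genes carried a symbol of their own, 34 gene means were lower and 6 higher. Of the 9 features, the number higher was 2 at 1.5-fold and 2 by limma. As olive oil over ANIT, 0 were lower and 5 higher, with means of 1.72 and 1.49 (Cyp7a1), 1.89 (Cyp8b1 feature 1391), 1.32 and 1.30 (Cyp27a1), 0.85 (Nr1h4) and -0.59 and -0.64 (Nr0b2). With natural logarithms the means were -2.49 (Cyp7a1 feature 72), -2.73 (Cyp8b1 feature 1391), -1.90 and -1.88 (Cyp27a1) and 0.85 and 0.93 (Nr0b2). Centring raised Nr0b2 feature 1795 to 0.75. Centring together with 1 orientation, chosen after seeing the data, gave 3 lower and 2 higher for ANIT in Cy5, with Cyp27a1 at -0.54 and -0.51, Cyp8b1 feature 1391 at -1.39 and Nr0b2 at 1.36 and 1.47. For ANIT in Cy3 it gave Cyp27a1 at -1.77 and -1.76, Cyp8b1 feature 1391 at -2.06 and Nr0b2 at 0.15 and 0.14. Counts over all features were not made for centring together with 1 orientation, so the 3 lower and 2 higher have no background beside them. Apart from what each setting does by its construction, the cause was not tested. Leaving out 1 array at a time, with the orientations weighted equally, gave 5 lower and 0 higher each time, with means between -1.92 and -1.86 for Cyp8b1 feature 1391 and between 0.55 and 0.63 for Nr0b2 feature 1795. No paired analysis was possible because each array already sets both pools against each other. No intensity was used, so signal over background is unknown for every feature.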
